A study of Mus musculus with 20 samples.

Results

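ATF4 sites outside protein-coding genes that were already present without added stress were examined in C2C12 cells, an immortalised line of mouse myoblasts of wild-type genotype. These shared intergenic peaks were taken from the authors' 2 lists of ATF4 peaks, 1 for cells treated with 100 nM thapsigargin for 6 h and 1 for cells treated with DMSO for 6 h. A thapsigargin peak was a member when it overlapped a DMSO peak by at least 1 bp and its centre lay outside every protein-coding gene and more than 1 kb from every end of such a gene. This gave 279 of 8619 thapsigargin peaks. They were selected on peak positions in both lists, so the overlap itself is a description. Thapsigargin empties the calcium store of the endoplasmic reticulum (ER) by blocking its pump and so causes ER stress, and DMSO is its solvent. Binding was mapped by CUT&Tag, in which an antibody guides a transposase to the protein and the DNA beside it is tagged and sequenced. The series has 20 samples in 10 groups of 2 replicates, for ATF4, CHOP, CEBPβ, CEBPγ and the histone mark H3K27Ac in both treatments, and the 4 ATF4 samples are the ones used here.

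ATF4 is a bZIP transcription factor whose translation rises when the initiation factor eIF2 is phosphorylated, the step that sets off the integrated stress response. It binds DNA as a dimer, often with a C/EBP protein, at composite elements that join a C/EBP half-site to an ATF half-site. Best known are its sites in promoters of genes for amino acid supply, tRNA charging and the stress response itself. Sites far from genes may belong to enhancers, which can act over long distances, so the nearest gene named below is a position and not a target.

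Each list stands for its condition as a whole and gives only chromosome, start and end of each peak. There is no height, score or value per replicate, the read depth is unknown, and no difference between conditions or classes of peaks could be tested over samples. Intervals are 95% Wilson intervals for shares and 95% order-statistic intervals for medians, and they cover counting error only. Positions are those of mm10, which corresponds to GRCm38.p6, the assembly of the RefSeq gene table, and count from 1. The lists hold no expression values, so the labelled cell type was not checked against markers.

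The members came from all 19 autosomes and X, with 28 on chromosome 2, 25 on chromosome 3, 4 on chromosome 19 and 2 on X. Among all thapsigargin peaks 9.25% overlapped a DMSO peak, and among the 2948 outside coding genes 9.46% did. The overlap chose the members, so nothing is read from these shares. The other 2669 peaks outside coding genes, found in thapsigargin only, serve below as the class most like the members. Of 284 DMSO peaks outside coding genes, 280 overlapped a member. Over the whole lists, 797 thapsigargin peaks overlapped 1 or more of the 803 DMSO peaks. A DMSO peak without a member may still overlap a thapsigargin peak that is not a member, so it is not thereby absent from thapsigargin.

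Sequence could be read where a RefSeq promoter window, 250 bases before to 50 bases after a gene's start, lay inside a member. This was so for 10 windows in 10 members, 9 of long noncoding RNA (lncRNA) genes and 1 of the coding gene Hspa5. They were searched on both strands for TGATGNAA, the letters of the composite C/EBP-ATF element, and its stricter form TGATGCAAT. The other letters searched were TGACGTCA (the cyclic AMP response element), TGANTCA (AP-1), TTGCGCAA (C/EBP), CANNTG (E-box) and the ER stress response element, CCAAT and CCACG with 9 bases between. The windows of Gm29906, Gm33624 and 1810008I18Rik are shown because they held the composite letters, and that of Hspa5 because it held the ER stress response element. They run 5′ to 3′ on the strand of the gene, with matches in capitals, E-boxes left in lower case.
Gm29906: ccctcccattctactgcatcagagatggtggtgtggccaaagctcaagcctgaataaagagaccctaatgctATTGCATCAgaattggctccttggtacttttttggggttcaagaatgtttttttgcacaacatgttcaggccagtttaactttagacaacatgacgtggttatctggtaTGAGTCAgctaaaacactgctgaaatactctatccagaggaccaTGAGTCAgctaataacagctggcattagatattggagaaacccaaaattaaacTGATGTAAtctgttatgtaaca
Gm33624: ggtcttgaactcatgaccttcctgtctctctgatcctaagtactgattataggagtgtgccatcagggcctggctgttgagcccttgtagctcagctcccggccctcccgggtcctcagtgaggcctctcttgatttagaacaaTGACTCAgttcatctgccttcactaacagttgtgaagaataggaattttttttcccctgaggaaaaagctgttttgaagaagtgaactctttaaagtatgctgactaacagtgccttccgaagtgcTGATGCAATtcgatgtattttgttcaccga
1810008I18Rik: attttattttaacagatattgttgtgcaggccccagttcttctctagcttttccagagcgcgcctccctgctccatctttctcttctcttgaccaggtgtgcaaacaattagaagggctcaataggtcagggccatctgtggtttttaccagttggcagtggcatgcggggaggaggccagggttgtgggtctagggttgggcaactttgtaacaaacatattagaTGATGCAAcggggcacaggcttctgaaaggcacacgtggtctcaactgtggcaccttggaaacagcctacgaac
Hspa5: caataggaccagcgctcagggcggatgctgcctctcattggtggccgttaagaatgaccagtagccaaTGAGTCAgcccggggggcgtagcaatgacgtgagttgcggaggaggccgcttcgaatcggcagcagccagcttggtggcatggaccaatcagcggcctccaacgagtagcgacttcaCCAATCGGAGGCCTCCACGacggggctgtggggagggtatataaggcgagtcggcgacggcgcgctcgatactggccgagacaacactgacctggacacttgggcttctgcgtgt

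The Gm29906 window is chr1:70918460-70918759 on the minus strand. Its strict composite match starts 178 bases before the gene's start and reads on the opposite strand, a further TGATGNAA match starts 28 bases after it, and AP-1 matches start 69 and 25 bases before it. In Gm33624 (chr10:119001146-119001445, minus strand) the strict match starts 20 bases after the gene's start and an AP-1 match 106 bases before it. The 1810008I18Rik window (chr7:65802787-65803086, plus strand) has TGATGNAA 24 bases before the start. Composite letters were thus present in 3 of 10 windows inside members (30.0%, interval 10.8% to 60.3%), against 3.97% of all 32851 RefSeq promoter windows of this length and 4.63% of the 11575 of lncRNA genes. The strict form was in 2 of 10, against 0.192% of all windows, and every strict match is also a TGATGNAA match. AP-1 letters were in 4 of 10, against 7.81% of all, E-box letters in 9 of 10, against 72.3%, and the cyclic AMP and C/EBP letters in 0 of 10, against 1.79% and 0.183%. A match describes letters in these windows, and 10 windows are few. Windows inside other ATF4 peaks were not counted, so these shares cannot tell whether the letters are particular to the members.

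At Hspa5, which encodes the ER chaperone BiP, the peak in thapsigargin was far wider than in DMSO. The thapsigargin peak spanned chr2:34769492-34772310 and was 2819 bp wide, and the DMSO peak spanned chr2:34769861-34770631 and was 771 bp wide. The thapsigargin peak reached 220 bp past the gene's start and covered the printed promoter window (chr2:34771840-34772139, plus strand). The DMSO peak ended 1459 bp before the gene's start and so left that window out. The window holds the ER stress response element 65 bases before the gene's start, a binding site of NF-Y with ATF6 or XBP1, in letters found in 0.119% of all windows, and AP-1 letters 182 bases before it. A second member lay 25.6 kb from the other end of Hspa5, nearest to Rabepk, with 1089 bp with thapsigargin and 851 bp with DMSO.

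Across the members the thapsigargin peak was mostly the wider one. The thapsigargin widths had a median of 1372 bp (interval 1308 to 1437 bp, range 474 to 3135 bp), and the overlapping DMSO peaks had a median of 817 bp (interval 780 to 884 bp, range 255 to 2212 bp). The width ratio of thapsigargin to DMSO had a median of 1.57 (interval 1.51 to 1.65) and was above 2 in 72 members and above 3 in 21. In 270 of 279 the thapsigargin peak was wider, in 244 (87.5%, interval 83.1% to 90.8%) the DMSO peak lay wholly inside it, and the centres were 104 bp apart in the median. Together the members covered 395 kb in thapsigargin, and their DMSO partners 245 kb. Width is set by the peak caller, can depend on read depth and is not a measure of occupancy.

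The same was seen at the shared peaks elsewhere. Medians were 1372 bp with thapsigargin and 817 bp with DMSO for the members. Shared peaks at gene ends had 1391 bp with thapsigargin and 888 bp with DMSO, and those inside genes 1373 bp and 848 bp in the same order. The intervals of the 3 classes overlapped in both conditions. Peaks outside coding genes in thapsigargin only had a median of 1001 bp (interval 987 to 1014 bp). Of the members, 232 were wider than the median thapsigargin peak of 1037 bp, and 80 were among the widest 10% of the list. A wider peak has more room to overlap another, so width is tied to the rule that chose the members, and these values were not tested.

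**Figure D1:**
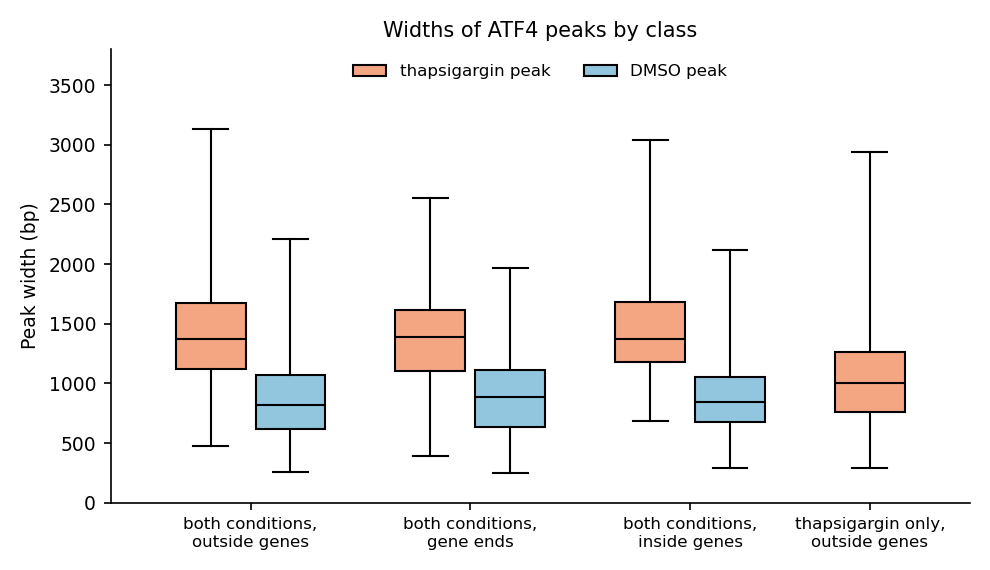
Peak widths in bp by class, with thapsigargin peaks in orange left of the DMSO peaks they overlap in blue. Boxes show quartiles and median, whiskers the lowest and highest width. The medians of the 3 classes of both conditions lie between 1372 and 1391 bp with thapsigargin, above the 1001 bp of thapsigargin-only peaks outside coding genes.

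The widest member lay between Smim20 and Rbpj on chromosome 5 (53509178 to 53512312), 45.0 kb from Rbpj, which encodes the DNA-binding factor of Notch signalling. It was 3135 bp wide with thapsigargin and overlapped 2 DMSO peaks, and was the only member over more than 1 DMSO peak. The DMSO peak sharing the most bases with it was 907 bp wide, and only that 1 entered its width ratio. After Hspa5 came a member between Bmf, a gene of a BH3-only death factor, and Bub1b, with 2784 bp with thapsigargin and 1672 bp with DMSO. Others were near Cttnbp2nl (2603 bp with thapsigargin, 782 bp with DMSO), Gypc (2476 and 1177 bp in that order) and Noct, the gene of the circadian enzyme nocturnin (2365 and 559 bp). The 10 widest were completed by members nearest to Pla1a, Nap1l1, Ccdc42 and Il3ra, at 2222 to 2334 bp with thapsigargin and 931 to 1674 bp with DMSO. All 10 were wider in thapsigargin.

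The largest width ratios were at small DMSO peaks, which the ratio favours because the DMSO width is its divisor. The member nearest to Nfkbiz, the gene of an inducible nuclear IκB protein, was 1726 bp wide with thapsigargin and 350 bp with DMSO, a ratio of 4.93. Between the natriuretic peptide genes Nppa and Nppb the widths were 2130 bp with thapsigargin and 433 bp with DMSO (4.92). The members near Noct (4.23), the AP-1 gene Fosl2 (4.22, 1729 bp with thapsigargin and 410 bp with DMSO) and Tbc1d7, which encodes a subunit of the TSC complex that restrains mTORC1 (4.21), followed.

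In 9 members the DMSO peak was the wider one. The lowest ratio, 0.604, was 112 kb from the kinase gene Dyrk2, where the thapsigargin peak was 1336 bp and the DMSO peak 2212 bp wide. This member holds the Gm33624 window printed above. The ratio was 0.739 near Creb3l1, the gene of an ER-membrane bZIP factor (640 bp with thapsigargin, 866 bp with DMSO), and 0.774 near the nucleoside transporter gene Slc28a1. Near Ccdc9 and Bbc3 it was 0.795, and near the matrix proteoglycan gene Prelp 0.816.

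**Figure D2:**
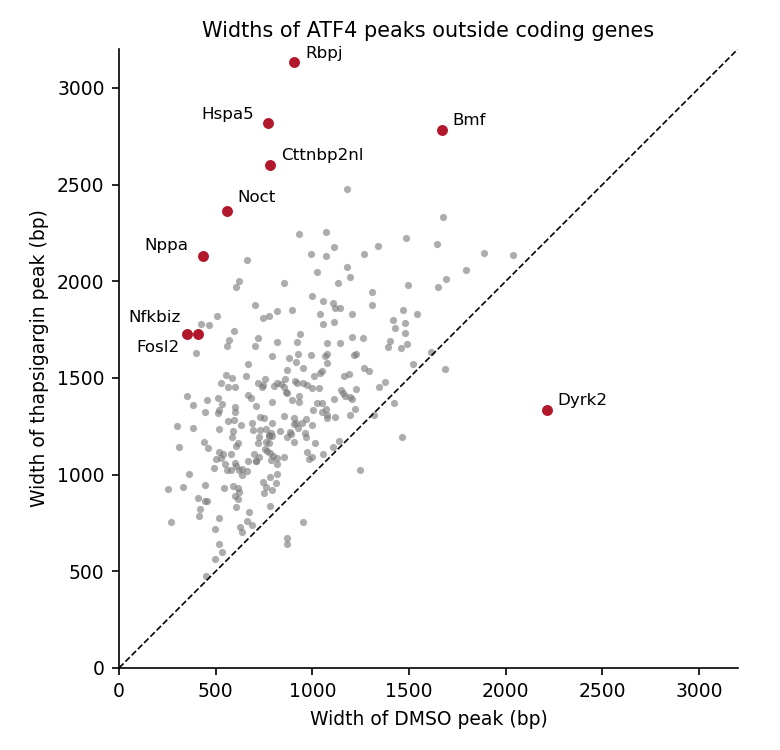
Width of the thapsigargin peak against that of the overlapping DMSO peak, both in bp, for the 279 members. Points above the dashed line of equal width (270 of 279) are wider in thapsigargin, and red points are members with extreme widths or ratios, named by the nearest coding gene.

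The members were spread from just past the 1 kb limit to far from any coding gene. From the peak centre, the nearest coding gene end was at a median of 24.9 kb (interval 20.6 to 30.2 kb). For thapsigargin-only peaks outside coding genes this was 30.9 kb (interval 28.9 to 34.1 kb), so these intervals overlapped. Within 50 kb lay 191 of 279 members (68.5%, interval 62.8% to 73.6%) and 1642 of 2669 thapsigargin-only peaks (61.5%, interval 59.7% to 63.3%). Within 5 kb the shares were 15.4% (interval 11.6% to 20.1%) and 11.8% (interval 10.6% to 13%) in the same order. The member share of all peaks outside coding genes was 12% at 1 to 5 kb, 10.9% at 5 to 10 kb, 9.77% at 10 to 50 kb, 7.87% at 50 to 100 kb, 7.47% at 100 to 200 kb, 9.26% at 200 to 500 kb and 6.17% beyond. Median member widths in these bins ran between 1252 and 1454 bp with thapsigargin, and between 727 and 866 bp with DMSO. These differences were not tested.

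**Figure D3:**
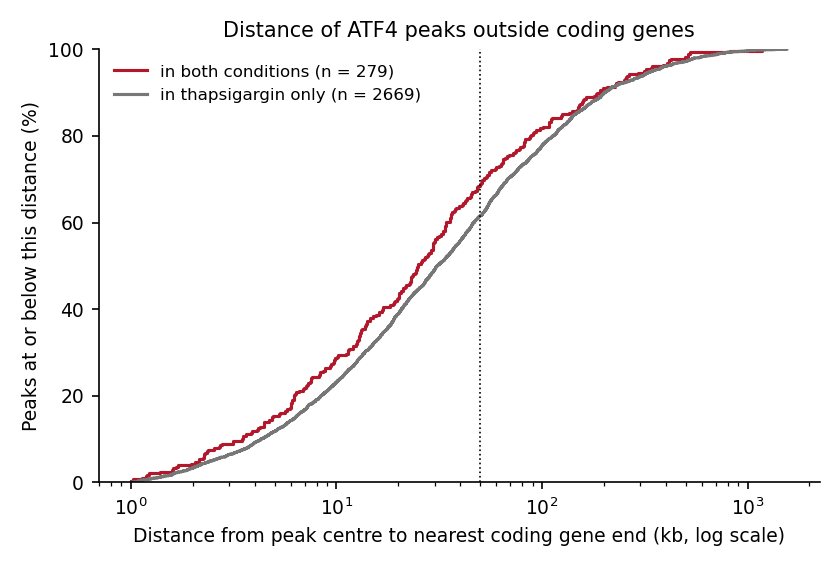
Share of peaks outside coding genes (%) at or below each distance from the peak centre to the nearest coding gene end (kb, log scale). Red shows the 279 members and grey the 2669 thapsigargin-only peaks, and at the dotted line of 50 kb the curves are at 68.5% and 61.5%.

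Closest to a gene were the members at Pla1a, which encodes a phospholipase (1007 bp from its end), and at Ect2, a gene needed for cytokinesis (1027 bp). Next were those at the desmosomal cadherin gene Dsc3 (1135 bp), Hspa5 (1189 bp) and the homeobox gene Irx5 (1203 bp). The edges of 2 of the 279 reached into a coding gene, those at Hspa5 and Pla1a. Just inside the limit, and so not members, were shared peaks at Alyref2 (912 bp), Setd5 (822 bp) and Ptpn12 (818 bp). The smallest overlap of a member with its DMSO peak was 255 bp, near Ggta1, and the thapsigargin-only peaks nearest to a DMSO peak were 655 bp and 819 bp from it, near Ccdc9 and Slc28a1.

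Farthest was a member on chromosome 10 (16552568 to 16554042), 1169.9 kb from Cited2, the gene of a coregulator that binds CBP and p300. It was 1475 bp wide with thapsigargin and 719 bp with DMSO. The other members over 500 kb from a coding gene end were nearest to Cdh18 (826 kb), the collagen lysyl hydroxylase gene Plod2 (523 kb), the guidance ligand gene Slit2 (511 kb) and Myc (511 kb). The last was 1395 bp wide with thapsigargin and 511 bp with DMSO, and a second member stood 339 kb from Myc (1212 bp with thapsigargin, 887 bp with DMSO). Beyond 100 kb there were 51 members in all.

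Peaks at the ends of the genes nearest to members were counted next. A peak counts as at an end when its centre lies within 1 kb of it. The nearest coding gene had a thapsigargin peak at an end for 65 of 279 members (23.3%, interval 18.7% to 28.6%), against 15.1% of all 21631 coding genes. The first share was 44.8% (interval 39.1% to 50.7%) when a peak within 5 kb of the end was counted. That share includes the 43 members within 5 kb, which count themselves. It has no matching share of all coding genes and is not to be set against the 15.1%. With the 1 kb limit the gene had a DMSO peak at an end for 3 of 279 (1.08%, interval 0.366% to 3.11%), against 1.29% of all coding genes, which is near the background. These 3 were nearest to Tars, the gene of threonyl-tRNA synthetase, Hspa9, that of a mitochondrial chaperone, and Arid5a, and all 3 genes had a thapsigargin peak there too. For thapsigargin-only peaks outside coding genes the shares were 22.0% for thapsigargin and 1.65% for DMSO, and the differences from the members were not tested.

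In 62 of the 65 cases with the 1 kb limit the gene end had a thapsigargin peak and no DMSO peak, while the DMSO peak at the member itself is fixed by the rule. The gene end had both peaks in 3 of these 65 (4.62%), against 44 of 586 (7.51%) for thapsigargin-only peaks outside coding genes and 8.39% of all coding genes with a thapsigargin peak at an end, differences that were not tested. Stress genes among the 62 cases included Sesn2 and Ddit4, which encode inhibitors of mTORC1. The member 4.11 kb from Sesn2 was 2047 bp wide with thapsigargin and 1026 bp with DMSO, and the one 6.22 kb from Ddit4 was 1299 bp wide with thapsigargin and 727 bp with DMSO. Further cases included Pdia4, an ER disulfide isomerase gene (7.47 kb, 1113 bp with thapsigargin and 782 bp with DMSO), and Ccn2. That gene encodes a matrix protein and had members at 5.64 kb (1604 bp with thapsigargin, 877 bp with DMSO) and 14.1 kb (1005 bp with thapsigargin, 817 bp with DMSO). The member 6.04 kb from the transcription factor gene Klf9 was 2193 bp wide with thapsigargin and 1645 bp with DMSO.

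**Figure D4:**
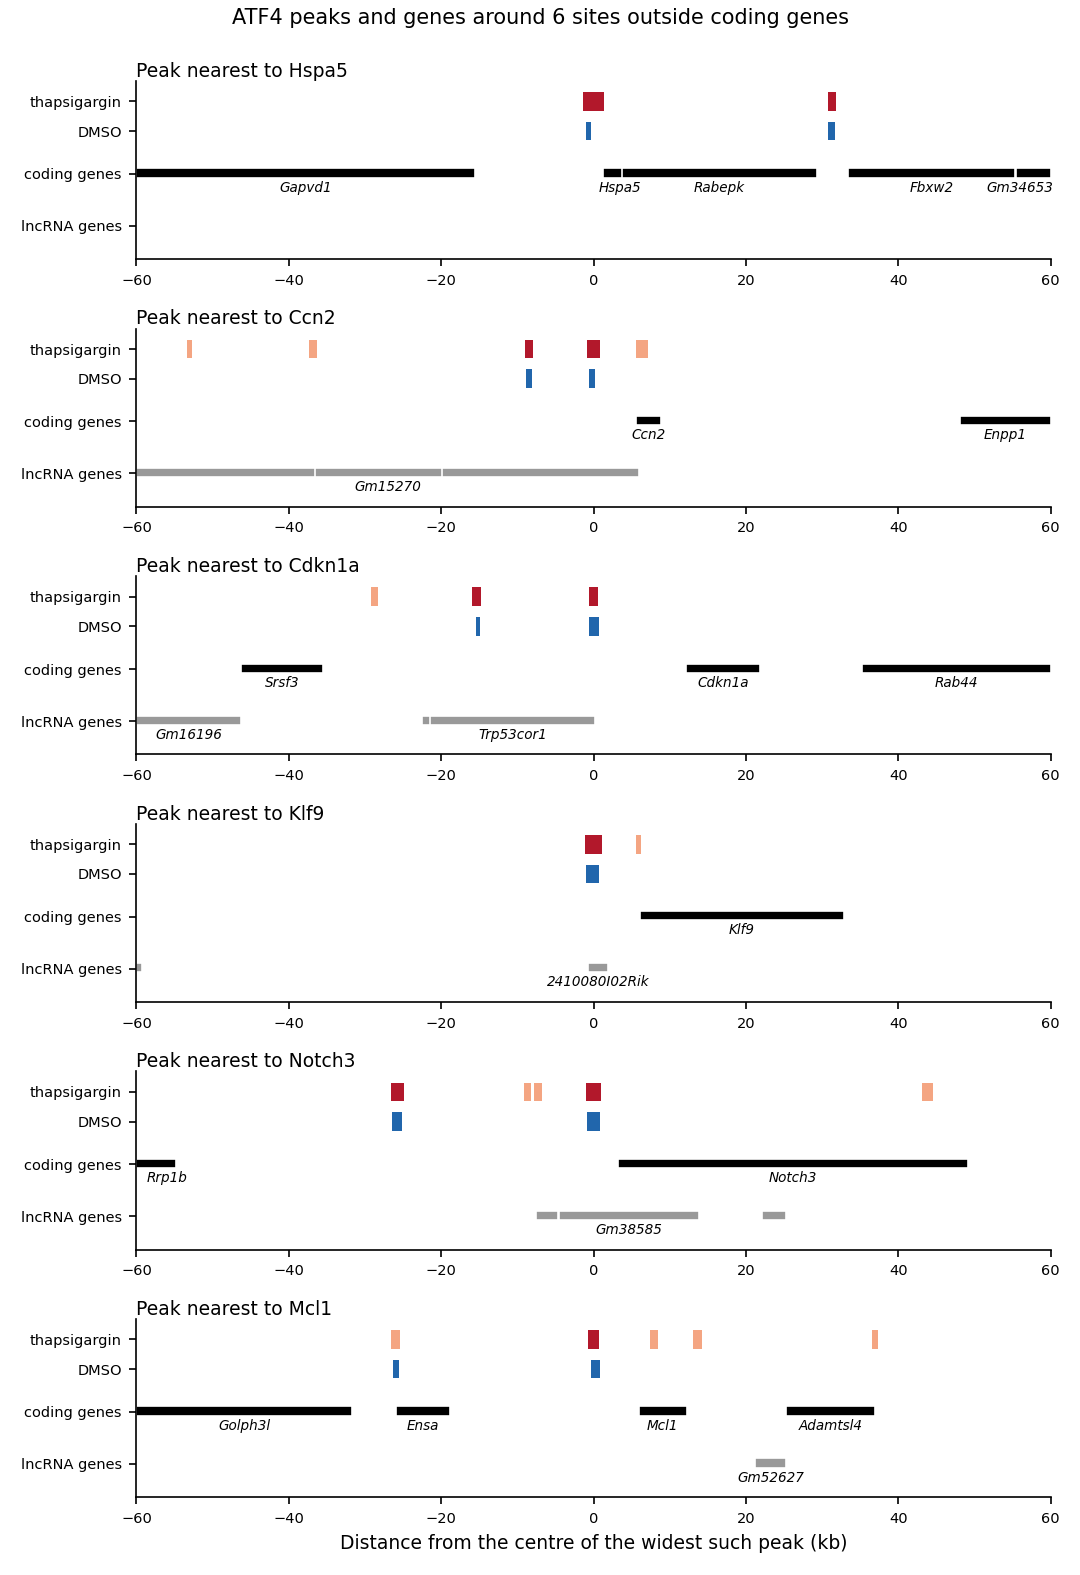
Peaks and genes within 60 kb of the widest member nearest to each of 6 genes, by distance from its centre in kb. Thapsigargin peaks stand above DMSO peaks, members are dark red, other thapsigargin peaks light orange and DMSO peaks blue, and coding genes are black and lncRNA genes grey. At Ccn2 and Klf9 the coding gene end has a thapsigargin peak and no DMSO peak beneath it.

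Gene lists of known ATF4 themes and of the cell type were then set against the members. A list gene was counted when a member lay within 100 kb of an end, which held for 729 of 21631 coding genes (3.37%). Of 284 list genes 39 were counted (13.7%, interval 10.2% to 18.2%), near 42 members. A member counted for a list gene could lie nearer to another coding gene. This held for Bcl2l1 (member 3.90 kb from Id1), Egr1 (4.5 kb from Hspa9) and Ier2 (2.29 kb from Cacna1a). It also held for Phgdh (6.96 kb from Zfp697), Slc7a5 (7.09 kb from Gm42048), Cry2 (4.45 kb from Slc35c1) and further list genes. Among coding genes with a DMSO peak at an end 22 of 278 were counted (7.91%), and with a thapsigargin peak at an end 176 of 3267 (5.39%). Of the 39 list genes, 5 had peaks at an end in both conditions, 19 in thapsigargin only and 15 in neither. Hspa5 was among the 15 by the rule on peak centres. Its member was centred 1189 bp from the gene's start, although the thapsigargin peak covered its promoter window. The lists were chosen with earlier results of these data known, so their counts are descriptions without a test.

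Regulators of the integrated stress response and the unfolded protein response had 5 of 32 genes with a member (15.6%). Besides Sesn2 and Ddit4 these were Xbp1, which encodes a transcription factor activated by IRE1 splicing, Eif2ak4, the gene of the eIF2 kinase GCN2, and Atf4 itself. The member 25.9 kb from Xbp1 was 1352 bp wide with thapsigargin and 706 bp with DMSO, and Xbp1 had peaks at an end in both conditions. The one nearest to Atf4 stood 35.4 kb away and 4.26 kb from Mgat3, and was 805 bp wide with thapsigargin and 670 bp with DMSO. Eif2ak4 was 95.5 kb from the wide member next to Bmf.

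Of the ER chaperones and degradation factors 4 of 23 (17.4%) had a member. Beyond Hspa5 and Pdia4 these were Hsp90b1, the gene of the chaperone GRP94 (77.6 kb, 1470 bp with thapsigargin and 836 bp with DMSO), and Derl3, a gene of retrotranslocation (20.5 kb, 1460 bp with thapsigargin and 802 bp with DMSO). Classic metabolic targets of ATF4 came next. Amino acid synthesis had 2 of 21 (9.52%, interval 2.65% to 28.9%), Phgdh of serine synthesis (35 kb) and Asns of asparagine synthesis (79.6 kb), and 12 of 21 had a DMSO peak at an end. The tRNA synthetases had 2 of 20 (interval 2.79% to 30.1%), Tars (12.7 kb) and Hars (57.8 kb), and 12 of 20 had a DMSO peak at an end. Amino acid transport had 1 of 16 (6.25%, interval 1.11% to 28.3%), Slc7a5 (30.2 kb). These intervals overlapped those of the stress response (6.86% to 31.8%) and chaperone lists (6.98% to 37.1%), and no difference between lists was tested.

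The list of atrophy, growth arrest and death had 7 of 20 (interval 18.1% to 56.7%). A thapsigargin peak stood at an end of 5 of the 20 genes, and a DMSO peak at an end of none of the 20. Near Cdkn1a, which encodes the cell cycle inhibitor p21, were members at 12.1 kb (1308 bp with thapsigargin, 1320 bp with DMSO) and 27.5 kb (1280 bp with thapsigargin, 596 bp with DMSO). Near Cdkn1b, the gene of p27, a member at 2.34 kb was 1676 bp wide with thapsigargin and 1491 bp with DMSO. Genes of the BCL2 family made up the larger part. Pmaip1, which encodes the death factor NOXA, had a member at 6.54 kb with 2112 bp with thapsigargin and 659 bp with DMSO. Bbc3, the gene of PUMA, had one at 13.3 kb with 755 bp with thapsigargin and 950 bp with DMSO. The survival genes Mcl1 (5.98 kb, 1402 bp with thapsigargin and 1195 bp with DMSO) and Bcl2l1 (17.4 kb, 1494 bp with thapsigargin and 756 bp with DMSO) had members too. Igfbp5, which encodes a binding protein of insulin-like growth factors, had members at 76.8 kb and 88.9 kb.

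AP-1 and growth response genes had 6 of 25 (24.0%, interval 11.5% to 43.4%), namely Klf9, Klf6 (16.1 kb), Ier2 (18.8 kb), Fosl2 (34.1 kb), Ier3 (44.5 kb) and Egr1 (93.9 kb). All 6 had a thapsigargin peak at an end and Ier2 a DMSO peak as well. Oxidative stress had 2 of 15, Nfe2l2, the gene of NRF2 (31.8 kb), and Gclm of glutathione synthesis (73.4 kb). Circadian genes had 2 of 18, Cry2 (30.9 kb) and Bhlhe40 (42.9 kb), and autophagy had 0 of 18, which allows a share of up to 17.6% by the Wilson interval.

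Genes of skeletal muscle and of other cell types were counted in the same way. Among skeletal muscle genes 3 of 24 (interval 4.34% to 31.0%) had a member, while 1 of 24 had a thapsigargin peak at an end and 0 of 24 a DMSO peak. Myf6 and Myf5, neighbouring genes of myogenic bHLH factors, shared a member on chromosome 10 (107502023 to 107503884) at 8.23 kb and 16.0 kb, with 1862 bp with thapsigargin and 1117 bp with DMSO. Chrna1, the gene of the muscle acetylcholine receptor's alpha subunit, had one at 10.2 kb with 1074 bp with thapsigargin and 788 bp with DMSO. Of mesenchymal, matrix and cytoskeleton genes 4 of 38 had a member, Ccn2, Smad3 (36.0 kb), Smad7 (48.0 kb) and Col1a2 (48.5 kb). Of 14 markers of other cell types 1 had a member (7.14%, interval 1.27% to 31.5%), the fat cell regulator gene Pparg (44.7 kb). None of the 14 had a peak at an end in either condition. Col1a2, also a fibroblast marker, was counted with the mesenchymal genes and not here. This interval overlapped that of the muscle list, and no difference between these lists was tested.

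**Figure D5:**
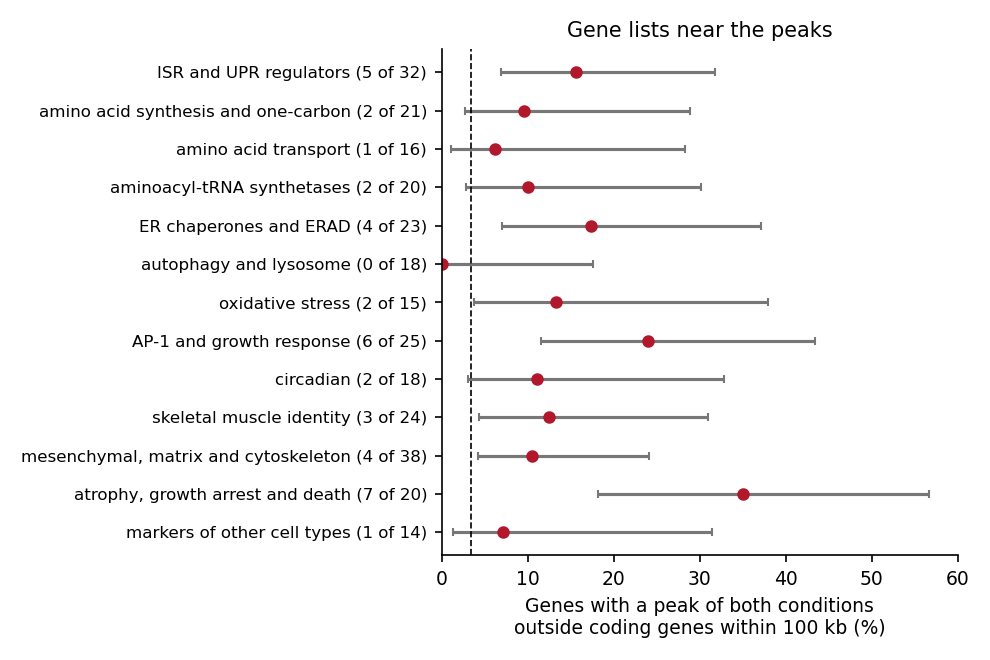
Share of each list's genes (%) with a member within 100 kb of a gene end, with 95% Wilson intervals, and counts beside the names. The dashed line marks the 3.37% of all coding genes, and the points run from 0 of 18 autophagy genes to 7 of 20 genes of atrophy, growth arrest and death.

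Noncoding genes were placed against the members in the same way. The centre of 67 of 279 (24.0%, interval 19.4% to 29.4%) lay inside a noncoding gene, against 21.4% (interval 19.9% to 23.0%) of thapsigargin-only peaks outside coding genes. A noncoding gene end lay within 1 kb of the centre in 21 members (7.53%, interval 4.98% to 11.2%), against 10.2% (interval 9.06% to 11.4%). The intervals overlapped for both measures. At least 1 bp of an lncRNA gene was covered by 70 members, and 203 members touched no gene of any type. Such counts by any shared base were not made for thapsigargin-only peaks, and a wider peak can touch more genes. Both members near Cdkn1a lay in Trp53cor1, also known as lincRNA-p21, and the one at 12.1 kb covered its end (chr17:29057474-29079126). On chromosome 19 the Klf9 member covered the start of the lncRNA gene 2410080I02Rik. The member at Irx5 covered the start of the lncRNA gene Crnde, with 1819 bp with thapsigargin and 777 bp with DMSO.

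Other members over a noncoding gene end included one at Carmn, the host gene of Mir143 and Mir145, on chromosome 18 (61663900 to 61665562), with 1663 bp with thapsigargin and 701 bp with DMSO. At the snoRNA host gene 2410006H16Rik the thapsigargin peak of a member (1148 bp) covered Snord49a and Snord49b. Its DMSO peak (606 bp) covered Snord49b and ended before Snord49a. The member near Pdia4 covered part of Rny1, which encodes a Y RNA. In all, 18 members covered a noncoding gene end, a count that was not made for thapsigargin-only peaks. Of the 10 promoter windows inside a member, 6 were also wholly inside the DMSO peak, among them those of Gm29906, Gm33624 and 1810008I18Rik.

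Neighbouring thapsigargin peaks were joined into runs where they were under 12500 bp apart. In no run were 208 members (74.6%, interval 69.1% to 79.3%), against 2190 of 2669 thapsigargin-only peaks outside coding genes (82.1%, interval 80.6% to 83.5%). Of the other members 55 were in a pair and 16 in a run of 3 or more (5.73%, interval 3.56% to 9.11%). For thapsigargin-only peaks outside coding genes the share in runs of 3 or more was 4.08% (interval 3.40% to 4.90%). No other thapsigargin peak lay within 50 kb of 128 members (45.9%, interval 40.1% to 51.7%), against 50.3% (interval 48.4% to 52.2%). These differences were not tested. The longest runs with a member were at Hspa9 and Etf1 on chromosome 18 (38.2 kb, 6 peaks of which 3 shared), at Tmem86a and Spty2d1 (28.8 kb, 5 peaks of which 1 shared) and at Bbc3 and Ccdc9 (28.4 kb, 5 peaks of which 1 shared). Those at Irf2bp2 and Tarbp1 (23.8 kb, 4 peaks) and at Ifne (23.3 kb, 4 peaks) came next, with 2 members and 1 member.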

How the data were processed

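ATF4 was profiled by CUT&Tag with a Vazyme Hyperactive Universal kit, per the labels' protocols, with 2 replicates per treatment; nothing in the labels says whether these were separate cultures. The deposited files give 1 peak list per treatment (chromosome, start, end). Per the submitters' processing notes, the build was mm10 and the tools were MACS2 2.2.7.1, Bowtie2 and Trim Galore 0.6.10, with no roles stated. Not given in the sources used here are the peak threshold, any control library and the merging of replicates, so the length of a list and the width of a peak may depend on depth. The other 8 groups were not analysed here.

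Peaks were placed against 21631 protein-coding genes of a RefSeq table (GRCm38.p6), which gives no strand or exons. Where a member overlapped several DMSO peaks, the one sharing most bases was used. Promoter sequences came from RefSeq windows (GRCm38.p6); that table is not complete, and 1685 of 1685 overlapping pairs on opposite strands were reverse complements. The motif search had been planned on 300 bp around peak centres and was run on promoter windows, since no genome sequence was used here. No test was run, as each condition has 1 list and peaks are not replicates. The members and the 13 gene lists were chosen with earlier results of these data known. Members were named as the 10 widest, the 5 with the largest and smallest width ratio, the 5 closest to and farthest from a gene, those within 100 kb of a list gene, those over a noncoding gene end and the 5 longest runs, and printed in part; 2 of 286 list genes were not matched. Other overlap and location rules were tried. Overlap, location, interval and motif steps were tested on simulated data. The tools were matplotlib 3.10.9, scipy 1.17.1, pandas 2.3.3 and numpy 2.4.6 under Python 3.11.15.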

Additional observations from a re-analysis of the deposited data

How the results depend on the processing

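No paired analysis was possible because only 1 list stands for each condition, and no replicate could be left out for the same reason. Of 50 alternative values, 40 stayed within the interval of the reported value or within 1.5 times the reported count. The 279 members became 136 with peak centres within 100 bp and 127 among peaks above the median width of each list, settings that allow fewer matches by construction. The median thapsigargin width of 1372 bp was 1255 bp with centres within 100 bp and 1550 bp among those wide peaks. The median width ratio of 1.57 was 1.44 where the DMSO peak had to cover 50% of the thapsigargin peak, 1.41 with centres within 100 bp and 1.35 among those wide peaks, and stayed above 1 throughout. The share within 50 kb of a coding gene end was 62.7% for members over 5 kb away, which leaves the nearest ones out. With peak centres within 5 kb of the end, 44.8% of members had a nearest gene with a thapsigargin peak; the 43 members that close count themselves by construction, and the cause of the rest of the move was not tested. With genes of all types 1 promoter window was left, without composite letters (0%). The windows with composite letters were all of lncRNA genes, so this setting leaves them out by construction. The search of whole peaks for motifs and a stricter peak score were not run, as the lists hold no sequence or score.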

Other observations

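Several genes had more than 1 member next to them. Among 263 nearest genes 14 had 2 or more, and Cyp26b1, which encodes a retinoic acid hydroxylase, and Mdm1 had 3 each. At Cyp26b1 the members lay at 7.60, 36.1 and 152 kb, with 640, 1251 and 1477 bp with thapsigargin and 518, 298 and 1373 bp with DMSO. At Mdm1 they lay at 3.64, 37.8 and 91.3 kb, with 1475, 937 and 1001 bp with thapsigargin and 527, 762 and 362 bp with DMSO.

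Pairs stood at Sgk1, a gene of a stress-regulated kinase, at 98.0 and 108 kb (1694 and 1335 bp with thapsigargin, 566 and 517 bp with DMSO), and at Notch3, a Notch receptor gene, at 3.15 and 28.9 kb (2013 and 1760 bp with thapsigargin, 1690 and 1427 bp with DMSO). At Cttnbp2nl a second member of 2143 bp with thapsigargin and 990 bp with DMSO lay 2.70 kb from the other end of the gene. These groups were named after their values were seen.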
